A study of Homo sapiens with 12 samples.

Results

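The 46 genes described here encode the nuclear side of respiratory complex I: the subunits that the cell nucleus contributes to the enzyme and the NDUFAF assembly factors that help build it. They were taken by symbol alone, as every gene named NDUFA, NDUFAB, NDUFAF, NDUFB, NDUFC, NDUFS or NDUFV followed by a number, with pseudogenes left out, and this rule uses no measured value. The symbols matched 46 of 60671 genes in the table of LA libraries and the same 46 of 60666 genes in the table of PGN libraries. All 46 had a mean of at least 1 TPM (transcript abundance scaled by transcript length and library total) and were tested in every comparison. By role they were 3 core subunits of the N module, 4 core subunits of the Q module, 10 accessory subunits of the peripheral arm, 20 accessory subunits of the membrane arm and 8 assembly factors. The remaining gene, NDUFA4, keeps its complex I name but is counted today as a subunit of complex IV.

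RNA was sequenced from SZ95 sebocytes, an immortalised human sebaceous gland cell line, in 12 libraries of 4 groups with 3 replicates each. The groups were LA with resveratrol (LA+RVT), LA alone, PGN with resveratrol (PGN+RVT) and PGN alone, so that resveratrol, a plant polyphenol, was tested on top of a stimulus. The labels do not spell out LA or PGN, and no dose, time or library without a stimulus is analysed here. The 4 groups share 1 cell line, and replicates are described as biological with nothing said of separate culture days, so p-values reflect only how these libraries varied.

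Complex I takes electrons from NADH, passes them to ubiquinone and pumps protons across the inner mitochondrial membrane. Its N module binds and oxidises NADH, its Q module reduces ubiquinone, and its membrane arm pumps protons. The mitochondrial genome encodes the MT-ND subunits at the heart of the membrane arm, whereas the core subunits of the peripheral arm and all accessory subunits are nuclear and imported. Accessory subunits surround and stabilise the core, and assembly factors bind intermediates without staying in the finished enzyme. Sebocytes make and store lipid.

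The values are shares of each library and carry no depth, so no counting interval can be given, and fewer cells of a type cannot be told apart from less RNA per cell. KRT7, a keratin of the sebaceous gland, averaged between 1203 and 1753 TPM in the 4 groups. The markers of late sebaceous differentiation AWAT2 and MC5R were listed at 0 in every library, and AWAT1 averaged at most 0.0567 TPM in any group. AWAT1 was above 0 in 1 library, at 0.17 TPM. The 12 sebocyte markers together summed to 2000 to 2038 TPM in LA+RVT and 1799 to 1842 TPM in LA, and 2503 to 2572 TPM in PGN+RVT and 2493 to 2627 TPM in PGN. Most of this sum was KRT7, and single markers went both ways with resveratrol at an adjusted p under 0.05 in limma. Under LA the log2 fold change was 0.29 for KRT7, -0.37 for KRT5 and -0.54 for MUC1. Under PGN it was 1.07 for FADS2, 0.67 for FASN, 0.46 for SCD, -0.72 for PPARG and -0.30 for KRT5. Markers of other cell types were low, with DCN (fibroblast) and TYR (melanocyte) at 0 and PTPRC (immune cells) at a mean of at most 0.207 TPM in any group. The immune list summed to 54.6 to 58.2 TPM in LA+RVT and 47.9 to 51.4 TPM in LA, and to 52.2 to 53.6 TPM in PGN+RVT and 33.7 to 37.1 TPM in PGN, most of it CD68, which many cells express. The melanocyte list summed to 8.25 to 9.66 TPM in LA+RVT and 7.71 to 8.70 TPM in LA, and to 9.15 to 10.48 TPM in PGN+RVT and 5.34 to 7.05 TPM in PGN. The endothelial list, almost all CDH5, summed to 7.22 to 8.10 TPM in LA+RVT and 17.5 to 17.9 TPM in LA, and to 23.4 to 24.1 TPM in PGN+RVT and 24.8 to 26.5 TPM in PGN. The fibroblast list stayed at or under 11.6 TPM, and that of muscle and fat under 1.5 TPM, in every library. The part of these markers in the results below was not tested.

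The complex I genes were well expressed in these sebocytes. Their mean level over the 12 libraries had a median of 138 TPM, against 15.5 TPM for all genes tested, and 31 of the 46 exceeded 100 TPM. NDUFS6, a zinc-binding accessory subunit between the N and Q modules, had the highest mean at 735 TPM, with libraries between 656 and 847 TPM. NDUFS5, an accessory subunit of the membrane arm, was next at 726 TPM and between 638 and 861 TPM, so the order of these leading genes lies within their spread. NDUFV3, an accessory subunit of the N module, was lowest at 10.3 TPM, a 71.6-fold range. Several assembly factors were low, and NDUFAF4, NDUFAF5, NDUFAF6 and NDUFAF7 each averaged between 6.78 and 21.4 TPM in every group. Levels in the LA and PGN tables rest on different annotations and are set side by side only. Pearson's r of their log2 means was 0.98 across the 46 genes, but NDUFA10 averaged 205 TPM in LA+RVT and 220 TPM in LA, and 117 TPM in PGN+RVT and 119 TPM in PGN.

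**Figure D1:**
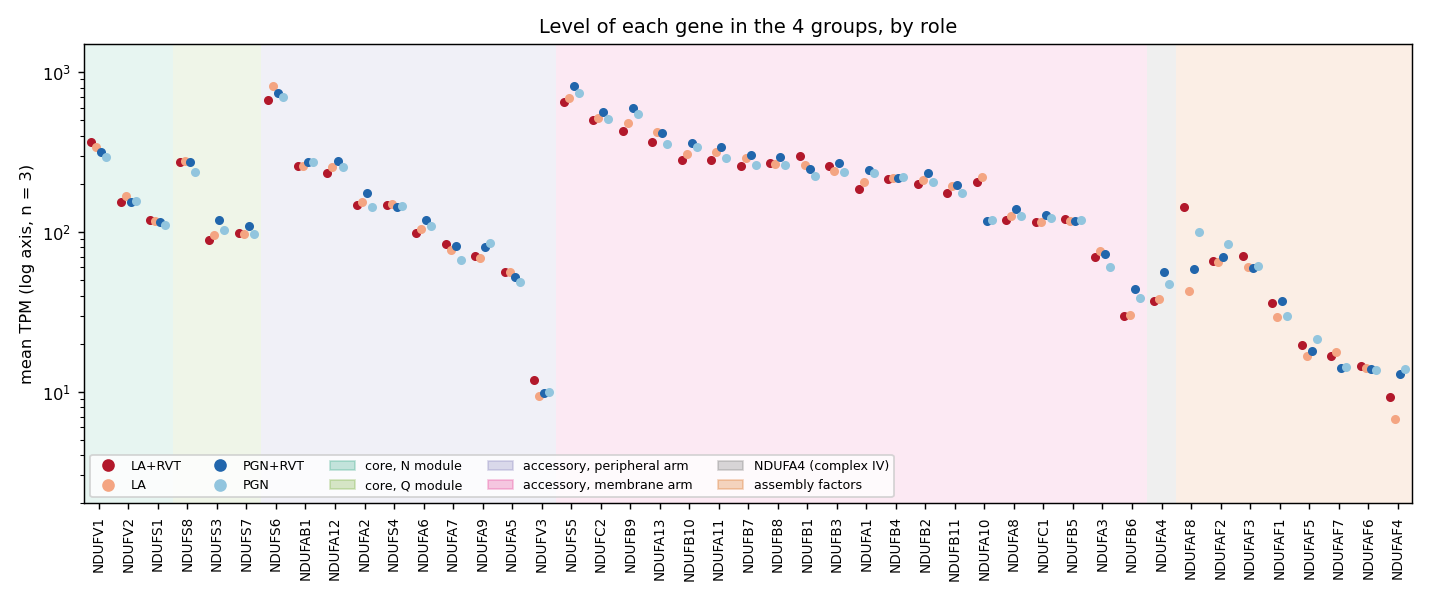
Mean TPM (log axis, n = 3) of each of 45 genes in LA+RVT, LA, PGN+RVT and PGN, ordered by role and, within a role, by level. The genes run between NDUFS6 at 735 TPM and NDUFV3 at 10.3 TPM over the 12 libraries, and NDUFAF8 is the gene whose groups lie farthest apart.

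The genes lie on 22 chromosomes, and all 46 are protein-coding. Their longest transcripts were short, with a median of 1407 bases against 3220.5 bases for all genes tested, and their GC content had a median of 47.9% against 48.7%. In the GENCODE 29 annotation 29 of the 46 overlap another gene, 18 of them one on the same strand and 25 one on the opposite strand. The sources used here do not say whether counting used strand, so reads of such pairs cannot be told apart with certainty. Among the genes discussed below, NDUFS3 overlaps PTPMT1, NDUFC2 overlaps the readthrough gene NDUFC2-KCTD14, and NDUFB9 overlaps TATDN1 on the other strand, while NDUFAF8 and NDUFS6 overlap none. On the same strand NDUFA13 overlaps YJEFN3 and AC011448.1, whose means were at most 1.31 and 2.85 TPM in any group. NDUFA11 overlaps AC024592.3 on the same strand, with a mean of at most 4.57 TPM in any group. NDUFA2 overlaps IK on the other strand, which averaged 136 TPM in LA+RVT and 129 TPM in LA, and 149 TPM in PGN+RVT and 126 TPM in PGN. NDUFV2 overlaps AP005263.1 on the same strand, which was at 0 in all libraries but LA replicate 1, where it had 36.3 TPM. The part of these overlaps in the calls was not tested.

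Under LA, 3 of the 46 genes were called higher with resveratrol and 6 lower, and the largest change was in an assembly factor. NDUFAF8 rose 3.35-fold, NDUFAF3 rose 1.17-fold, the NADH-binding subunit NDUFV1 rose 1.07-fold, and 6 subunits fell to between 0.814 and 0.919 of their level in LA. Across all genes tested 15.7% were called, 10.7% higher and 5.07% lower, against which 3 of 46 is a smaller share and 6 of 46 a larger one. A call means an adjusted p under 0.05 in limma's moderated test on log2(TPM + 1), two-sided, with Benjamini-Hochberg adjustment over all 15409 genes. The median log2 fold change of the 46 genes was -0.03, against 0.04 for all genes tested. In 7 genes all LA+RVT libraries lay above all LA libraries and in 11 all lay below, where all genes tested gave 23.4% and 12.8%.

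NDUFAF8 encodes a small partner that stabilises NDUFAF5, the assembly factor that modifies the core subunit NDUFS7. The gene lies at chr17:81239239-81241281 on the plus strand of GRCh38. Its levels were 157, 153 and 122 TPM in LA+RVT, against 42.9, 45.5 and 40.3 TPM in LA. Every LA+RVT library lay far above the LA range. The log2 fold change was 1.72 ± 0.10 (SE, n = 3 each, adjusted p = 0.000257 in limma). The partner NDUFAF5 averaged 19.6 ± 3.38 TPM in LA+RVT and 16.8 ± 2.79 TPM in LA (SD, n = 3 each), and its adjusted p was 0.398 in limma.

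Of the other assembly factors, NDUFAF3, which acts early on the Q module, had 69.9, 67.7 and 74.1 TPM in LA+RVT, against 57.6, 62.5 and 60.9 TPM in LA. The groups did not overlap, and the log2 fold change was 0.22 ± 0.05 (SE, adjusted p = 0.0264 in limma). NDUFAF3 kept this call in 5 of 14 alternative fits. Among the losses were those with library medians equalised (adjusted p = 0.0713 in limma) and with a GC and length trend removed (adjusted p = 0.083 in limma). NDUFAF1, a member of the complex that assembles the membrane arm, averaged 35.7 ± 4.64 TPM in LA+RVT and 29.4 ± 0.816 TPM in LA (SD, n = 3 each) without passing the test (adjusted p = 0.0954 in limma). Summed over the 8 factors the level was 376 ± 22.6 TPM in LA+RVT and 253 ± 5.79 TPM in LA, and without NDUFAF8 it was 232 ± 4.45 TPM in LA+RVT and 210 ± 3.35 TPM in LA (SD, n = 3 each).

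Among the 7 nuclear core subunits, NDUFV1 rose and NDUFV2 fell under LA, both within the N module. NDUFV1, which binds NADH and the flavin, had 360, 361 and 369 TPM in LA+RVT, against 339, 334 and 341 TPM in LA, a log2 fold change of 0.10 ± 0.02 (SE, adjusted p = 0.0234 in limma). NDUFV2, which holds an iron-sulphur cluster, had 154, 153 and 158 TPM in LA+RVT, against 168, 170 and 168 TPM in LA, a log2 fold change of -0.12 ± 0.03 (SE, adjusted p = 0.0237 in limma). The groups of both genes stayed apart by narrow margins. The log2 fold change of NDUFV1 was 0.06 with library medians equalised (adjusted p = 0.172 in limma) and 0.06 in TPM rescaled without mitochondrially encoded and ribosomal protein genes (adjusted p = 0.144 in limma). NDUFS1 of the N module and NDUFS3, NDUFS7 and NDUFS8 of the Q module were not called and had log2 fold changes between -0.11 and 0.03.

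The accessory subunits called under LA were all lower. NDUFS6, at chr5:1801400-1816605 on the plus strand, had 681, 677 and 656 TPM in LA+RVT, against 796, 847 and 829 TPM in LA. The most abundant of the 46 genes was thus lower in every LA+RVT library, by a log2 fold change of -0.30 ± 0.03 (SE, adjusted p = 0.00139 in limma). NDUFA13, known also as GRIM-19 and placed where the arms meet, had 373, 343 and 379 TPM in LA+RVT, against 402, 441 and 428 TPM in LA, a log2 fold change of -0.21 ± 0.05 (SE, adjusted p = 0.0297 in limma). NDUFA11, a subunit buried in the membrane arm, had 275, 281 and 287 TPM in LA+RVT, against 304, 312 and 334 TPM in LA, a log2 fold change of -0.17 ± 0.04 (SE, adjusted p = 0.0281 in limma). In both genes the highest LA+RVT library stayed under the lowest LA library. NDUFB9, at the far part of the membrane arm, had 421, 420 and 448 TPM in LA+RVT, against 471, 486 and 482 TPM in LA, a log2 fold change of -0.16 ± 0.03 (SE, adjusted p = 0.0174 in limma). NDUFB10, another subunit of the membrane arm, had 279, 279 and 282 TPM in LA+RVT, against 302, 311 and 303 TPM in LA, a log2 fold change of -0.12 ± 0.02 (SE, adjusted p = 0.0141 in limma). Of the 20 accessory subunits of the membrane arm, 4 were called lower and 0 higher, and 15 had a fold change below 0. At an unadjusted p under 0.05 in limma the counts were 9 lower and 1 higher, where 10.3% of all genes tested were lower and 20.3% higher.

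Only NDUFAF8 and NDUFS6 kept their calls under each of the 14 alternatives run. With 1 library left out the count of lower genes was 2 without LA replicate 2, LA replicate 3, LA+RVT replicate 1 or LA+RVT replicate 2, and the count of higher genes was 1 without LA replicate 1, LA replicate 3 or LA+RVT replicate 3. NDUFB10 lost its call in 1 of these fits (without LA replicate 2, adjusted p = 0.0513 in limma), and NDUFB9, NDUFA11, NDUFA13, NDUFAF3, NDUFV1 and NDUFV2 lost theirs in 4 or 5 of the 6 (adjusted p between 0.0533 and 0.0911 in limma). Calls over all genes tested fell as well with 1 library left out. Lower calls went from 781 to between 457 and 547, and higher calls from 1645 to between 954 and 1144.

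**Figure D2:**
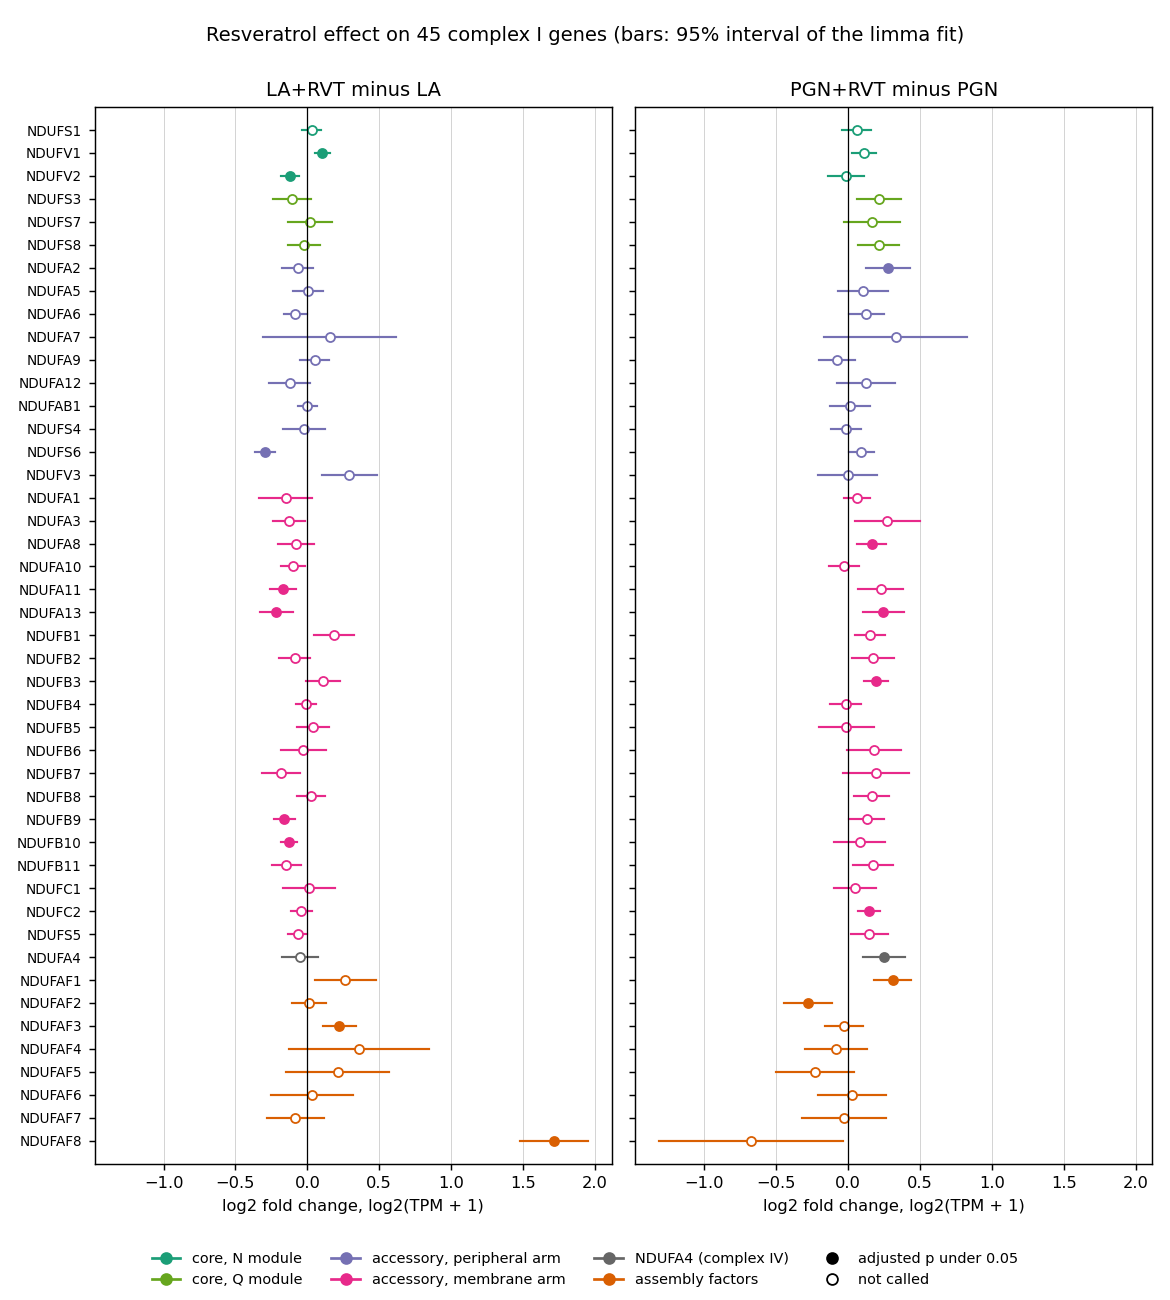
Log2 fold change of each of 45 genes (points) with the 95% interval of the limma fit (bars), LA+RVT minus LA on the left and PGN+RVT minus PGN on the right, coloured by role and filled where the adjusted p was under 0.05. NDUFAF8 stands far from the others at 1.72 in the LA arm, and the membrane arm genes lie mostly below 0 in the LA arm and above 0 in the PGN arm.

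Under PGN most calls were in the other direction, with 7 of the 46 called higher with resveratrol and 1 lower. The higher ones were the assembly factor NDUFAF1, the accessory subunits NDUFA2, NDUFA8, NDUFA13, NDUFB3 and NDUFC2, and NDUFA4. The lower one was the assembly factor NDUFAF2. Across all 14622 genes tested 15.6% were called, 10.6% higher and 4.92% lower. The median log2 fold change of the 46 genes was 0.12, against 0.06 for all genes tested. In 19 genes all PGN+RVT libraries lay above all PGN libraries and in 1 all lay below, where all genes tested gave 24.7% and 11.4%.

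Among the assembly factors, NDUFAF1 had 37.0, 35.7 and 38.1 TPM in PGN+RVT, against 29.8, 30.3 and 28.8 TPM in PGN. Among the 46 genes it was the largest called change of the PGN arm, with no overlap and a log2 fold change of 0.31 ± 0.05 (SE, adjusted p = 0.0112 in limma). NDUFAF2, a late assembly factor related in sequence to NDUFA12, had 73.8, 63.6 and 70.4 TPM in PGN+RVT, against 89.3, 78.9 and 84.6 TPM in PGN, a log2 fold change of -0.28 ± 0.07 (SE, adjusted p = 0.0401 in limma). NDUFAF8 had 65.99, 51.24 and 59.41 TPM in PGN+RVT, against 109, 131 and 58.5 TPM in PGN. PGN replicate 3 lay among the PGN+RVT libraries while the other PGN libraries were far above them, and the gene did not pass the test (log2 fold change -0.68 ± 0.27 SE, adjusted p = 0.142 in limma). Its SD in PGN was 37.4% of the mean, the widest of any of the 46 genes in any group.

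Of the accessory subunits, NDUFA2, a thioredoxin-like subunit of the peripheral arm, had 168, 182 and 172 TPM in PGN+RVT, against 131, 148 and 152 TPM in PGN, a log2 fold change of 0.28 ± 0.07 (SE, adjusted p = 0.0297 in limma). NDUFA13 had 423, 429 and 400 TPM in PGN+RVT, against 327, 351 and 381 TPM in PGN, a log2 fold change of 0.24 ± 0.06 (SE, adjusted p = 0.0353 in limma). It was the 1 gene of the 46 called in both arms, and the directions were opposite. NDUFB3, a small subunit of the membrane arm, had 268, 274 and 269 TPM in PGN+RVT, against 241, 231 and 237 TPM in PGN, a log2 fold change of 0.19 ± 0.04 (SE, adjusted p = 0.0138 in limma). NDUFA8, a membrane arm subunit facing the intermembrane space, had 137, 140 and 142 TPM in PGN+RVT, against 122, 123 and 130 TPM in PGN, a log2 fold change of 0.16 ± 0.04 (SE, adjusted p = 0.0417 in limma). In each of these 4 genes the lowest PGN+RVT library exceeded the highest PGN library. NDUFC2, a subunit of the membrane arm, averaged 563 ± 10.3 TPM in PGN+RVT and 509 ± 11.9 TPM in PGN (SD, n = 3 each, adjusted p = 0.0292 in limma), and NDUFC2-KCTD14, which shares its locus, averaged 16.0 TPM in PGN+RVT and 11.8 TPM in PGN. NDUFA4, the complex IV subunit, had 53.4, 60.3 and 55.4 TPM in PGN+RVT, against 47.6, 49.1 and 45.1 TPM in PGN, a log2 fold change of 0.25 ± 0.06 (SE, adjusted p = 0.0392 in limma).

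None of the 7 core subunits was called in the PGN arm, although 6 had a fold change above 0, and adjusted p ranged between 0.0585 for NDUFS8 and 0.873 for NDUFV2 in limma. At an unadjusted p under 0.05, 4 were higher and 0 lower, where 21.3% of all genes tested were higher and 9.44% lower. PGN+RVT replicate 2 held the highest value of the arm for 24 of the 46 genes, and PGN replicate 1 the lowest for 18. The count of higher genes was 1 without PGN replicate 2 or any single PGN+RVT replicate and 4 without PGN replicate 1, and the count of lower genes was 1 without PGN replicate 3 and 0 without any other single library. NDUFAF2 itself lost its call in all 6 of these fits (adjusted p between 0.0548 and 0.107 in limma), as did NDUFA4 (0.0677 to 0.111), and the other higher genes except NDUFAF1 lost theirs in 4 or 5. Calls over all genes tested fell as well with 1 library left out. Higher calls went from 1557 to between 690 and 1270, and lower calls from 720 to between 405 and 599. No gene of this arm kept its call in all 14 alternatives, and the nearest was NDUFAF1, which missed only without PGN+RVT replicate 1 (adjusted p = 0.0511 in limma). With library medians equalised 1 gene was called higher and 1 lower, and the log2 fold changes of NDUFA8 and NDUFC2 were 0.10 (adjusted p = 0.224 in limma) and 0.09 (adjusted p = 0.204 in limma). With a GC and length trend removed that of NDUFA13 was 0.14 (adjusted p = 0.0815 in limma).

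**Figure D3:**
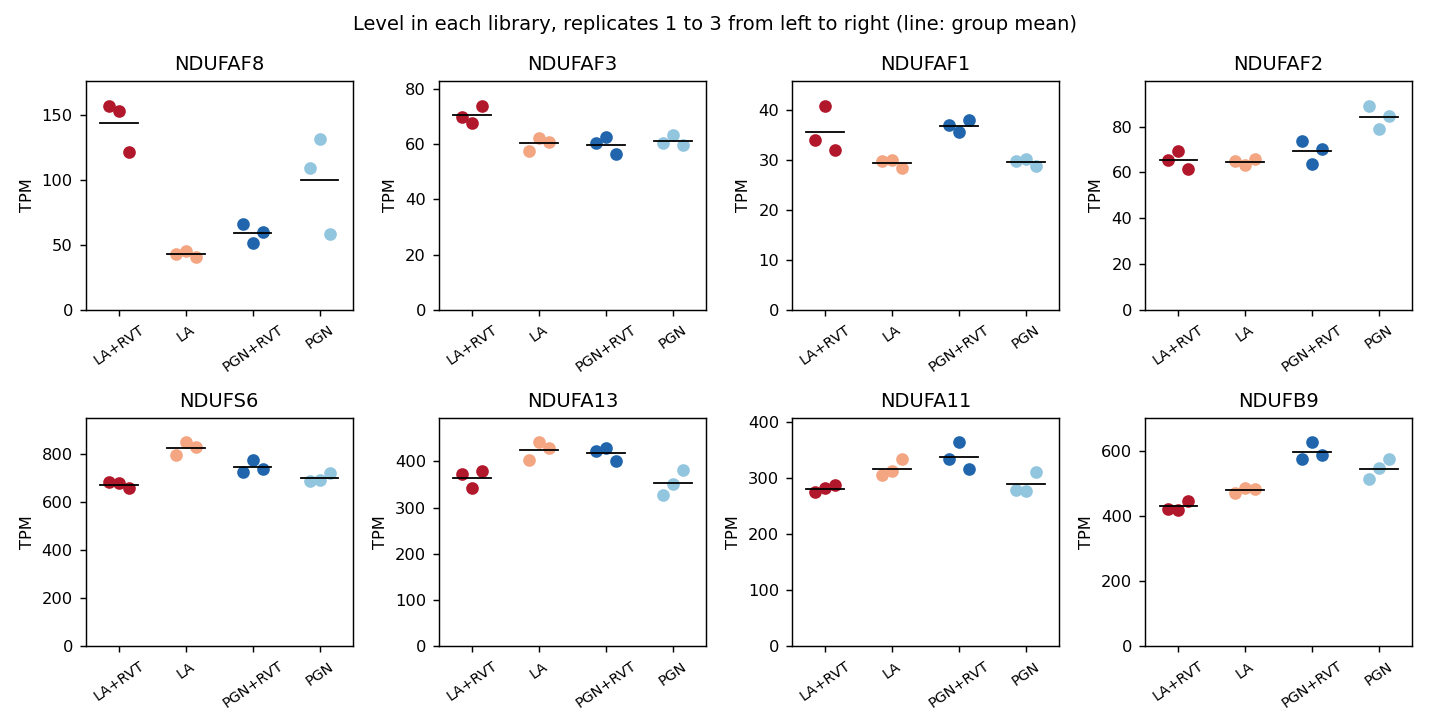
TPM in each library (points, replicates 1 to 3 from left to right) with the group mean (line) for 8 genes, in LA+RVT, LA, PGN+RVT and PGN. NDUFAF8 is above 120 TPM in all LA+RVT libraries and near 43 TPM in LA, and NDUFA13 is lower in LA+RVT than in LA but higher in PGN+RVT than in PGN.

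The direct test of whether the effect of resveratrol differed between the 2 arms took the effect under LA minus the effect under PGN on all 12 libraries. The arms come in separate tables with different annotations, so the stimulus cannot be told apart from any other difference between them. This test called 15 of the 46 genes (14.8% of all genes tested were called), 13 of them with a lower effect under LA and 2 with a higher one. Across the 15177 genes tested 7.73% were called lower and 7.03% higher, and the median difference was -0.13 for the 46 genes and -0.03 for all. All 13 lower genes had a fold change below 0 under LA and above 0 under PGN. Of these 13, 4 were called lower under LA, 5 were called higher under PGN and 5 were called in neither arm. The pattern of a fold change below 0 under LA and above 0 under PGN was held by 21 of the 46 genes, against 23.5% of all genes tested in both arms.

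By role, 8 of the 13 were accessory subunits of the membrane arm (NDUFA3, NDUFA8, NDUFA11, NDUFA13, NDUFB9, NDUFB11, NDUFC2 and NDUFS5). This role is also the largest, and the 8 were among 20 genes. The 10 accessory subunits of the peripheral arm gave NDUFA2, NDUFA6 and NDUFS6, the 7 core subunits gave NDUFS3 alone, and NDUFA4 was the last. Across all genes tested 7.73% were called lower. The largest of these differences was in NDUFA13, at -0.46 ± 0.08 log2 units (SE, adjusted p = 0.00395 in limma). NDUFA11 differed by -0.40 ± 0.08 (SE, adjusted p = 0.00781 in limma) and had 333, 363 and 316 TPM in PGN+RVT, against 278, 276 and 310 TPM in PGN. NDUFA3, a small membrane arm subunit, had 71.6, 68.8 and 67.4 TPM in LA+RVT, against 72.2, 79.5 and 75.8 TPM in LA, and 62.7, 81.3 and 75.4 TPM in PGN+RVT, against 62.84, 60.98 and 56.73 TPM in PGN. It was called in neither arm, PGN+RVT replicate 1 lay within the PGN range, and its difference was -0.40 ± 0.12 (SE, adjusted p = 0.0393 in limma). NDUFS6 had 725, 773 and 735 TPM in PGN+RVT, against 685, 692 and 718 TPM in PGN. Its groups did not overlap in either arm, in opposite directions, and the difference was -0.39 ± 0.05 (SE, adjusted p = 0.000331 in limma). NDUFS3, a core subunit of the Q module, had 82.5, 90.8 and 94.1 TPM in LA+RVT, against 96.1, 99.1 and 92.4 TPM in LA, and 116, 125 and 117 TPM in PGN+RVT, against 97.1, 99.0 and 112 TPM in PGN. It overlapped between the LA groups and not between the PGN groups, and differed by -0.32 ± 0.09 (SE, adjusted p = 0.0364 in limma).

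The higher effects under LA were those of 2 assembly factors. NDUFAF8 differed by 2.39 ± 0.33 log2 units (SE, adjusted p = 0.000715 in limma). NDUFAF3 had 60.4, 62.8 and 56.5 TPM in PGN+RVT, against 60.5, 63.4 and 59.8 TPM in PGN, groups that overlap, and differed by 0.25 ± 0.07 (SE, adjusted p = 0.0409 in limma). NDUFAF2 narrowly missed the threshold at 0.29 ± 0.09 (SE, adjusted p = 0.0543 in limma).

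The calls of NDUFAF8, NDUFS6, NDUFA13, NDUFA11 and NDUFB9 were kept in all 20 alternatives of the difference. NDUFA2, NDUFB11 and NDUFC2 lost theirs in 1 alternative each and in none that left out a library. The other 7 genes lost theirs in 6 to 10 of the 12 fits with a library left out, with adjusted p between 0.0538 and 0.101 in limma. The count of lower genes was 7 without PGN+RVT replicate 2 and 8 without LA replicate 2, LA replicate 3, LA+RVT replicate 1, LA+RVT replicate 2 or PGN replicate 2. Over all genes tested, leaving out 1 library gave between 862 and 1188 lower calls, against 1173 with all libraries. Higher calls were between 833 and 1062, against 1067.

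**Figure D4:**
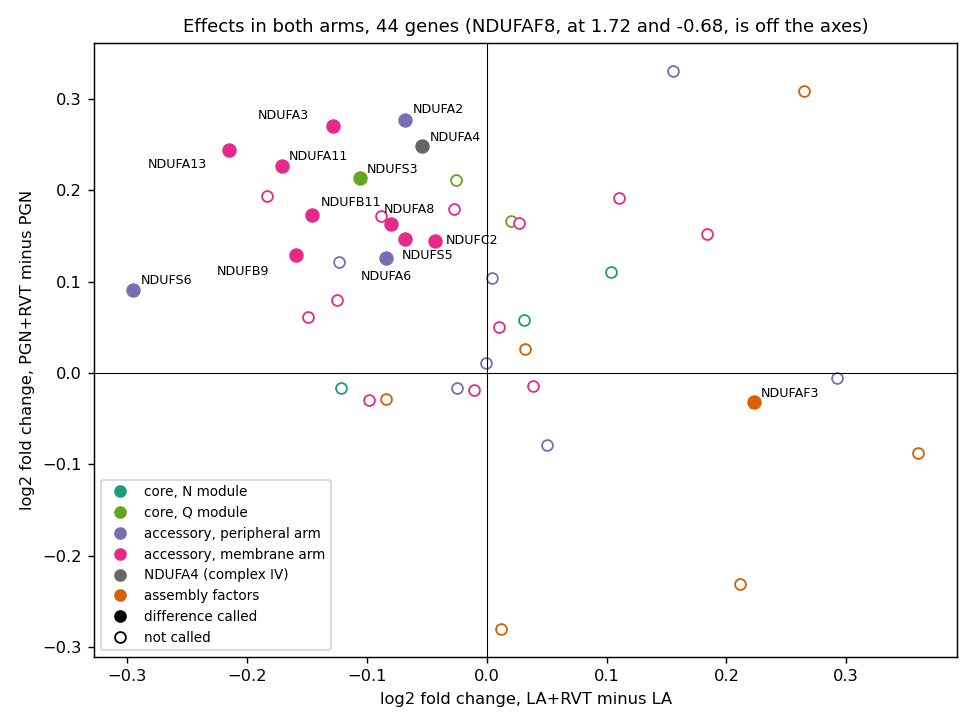
Log2 fold change in the LA arm (x axis, LA+RVT minus LA) against that in the PGN arm (y axis, PGN+RVT minus PGN) for 44 genes, coloured by role and filled where the difference between arms was called. The 13 genes with a lower effect under LA all lie in the upper left of the plot, and NDUFAF3 lies to the right.

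Across the 45 genes without NDUFAF8, Pearson's r between the fold changes of the arms was -0.27 and Spearman's rho -0.29, given as a description since the genes share libraries. Spearman's rho between fold change and GC content was -0.36 under LA and 0.45 under PGN, against 0.03 and 0.20 over all genes tested. Between fold change and log2 level it was -0.52 under LA and 0.24 under PGN. More abundant complex I genes thus had lower fold changes under LA. The relation to level was not computed over all genes tested, so it is not shown to be particular to these genes. With a trend on GC content and length removed, 8 genes in place of 13 were called lower in the difference, and 3 in place of 2 higher. The difference of NDUFS5 was then -0.13 (adjusted p = 0.265 in limma).

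The summed level gives the family as a share of the transcriptome. The 46 genes summed to 8454 ± 45.5 TPM in LA+RVT and 8775 ± 143 TPM in LA, and to 9232 ± 288 TPM in PGN+RVT and 8516 ± 154 TPM in PGN (SD, n = 3 each). The libraries of the groups did not overlap in either arm, and the ratio of means was 0.963 under LA and 1.08 under PGN. An exact permutation test of 3 libraries against 3 cannot go below 0.10, so no p is given. The membrane arm accessory subunits made up most of the sum, at 5029 ± 64.2 TPM in LA+RVT and 5299 ± 91.3 TPM in LA, and 5719 ± 201 TPM in PGN+RVT and 5184 ± 147 TPM in PGN. The peripheral arm accessory subunits summed to 1777 ± 14.5 TPM in LA+RVT and 1954 ± 55.9 TPM in LA, and to 1958 ± 69.8 TPM in PGN+RVT and 1835 ± 14.1 TPM in PGN. Within this sum NDUFS6 alone averaged 671 TPM in LA+RVT and 824 TPM in LA, and 744 TPM in PGN+RVT and 699 TPM in PGN. The median log2 fold change of the 10 genes of this role was -0.01 under LA and 0.10 under PGN, so the sums weigh abundant genes most. The core subunits summed to 1236 ± 28.3 TPM in LA+RVT and 1232 ± 9.87 TPM in LA, groups that overlap, and to 1215 ± 33.7 TPM in PGN+RVT and 1112 ± 26.4 TPM in PGN, groups that do not (SD, n = 3 each throughout). As a share of TPM outside mitochondrially encoded and ribosomal protein genes, the family's ratio was 0.932 under LA and 1.06 under PGN, and that of the core under LA was 0.971, with groups that then did not overlap.

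**Figure D5:**
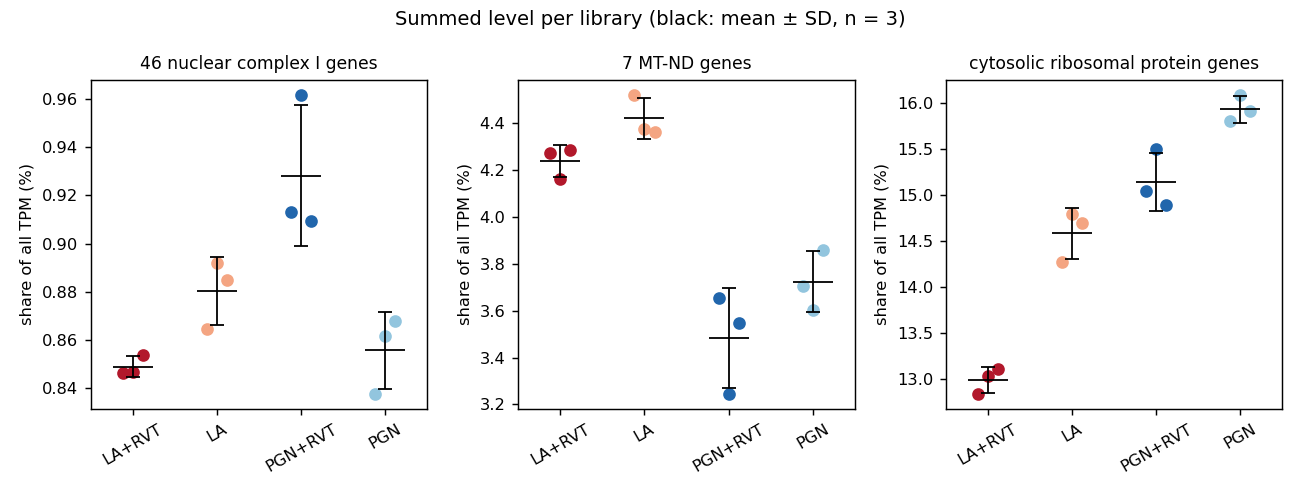
Summed level per library as a percent of all TPM (points; bars are mean ± SD, n = 3) of the 46 nuclear complex I genes, the 7 MT-ND genes and the cytosolic ribosomal protein genes; the y axes do not start at 0. The 46 genes average 0.849% in LA+RVT and 0.88% in LA, and 0.928% in PGN+RVT and 0.856% in PGN, while ribosomal protein genes are lower with resveratrol in both arms.

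Other large transcript classes differed between the same libraries. Cytosolic ribosomal protein genes took 13% of TPM in LA+RVT and 14.6% in LA, and 15.1% in PGN+RVT and 15.9% in PGN. Mitochondrially encoded genes took 13.1% in LA+RVT and 14.0% in LA, and 10.7% in PGN+RVT and 11.5% in PGN. These shares were lower with resveratrol in both arms, whereas the summed share of the 46 genes was lower only in the LA arm. The part of the ribosomal protein and mitochondrial shares in the result was not tested beyond the rescaling above.

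The mitochondrially encoded subunits that join the nuclear ones in the enzyme had lower mean sums with resveratrol in both arms. The 7 MT-ND genes summed to 42210 ± 713 TPM in LA+RVT and 44040 ± 856 TPM in LA, groups that do not overlap, and to 34640 ± 2130 TPM in PGN+RVT and 37040 ± 1300 TPM in PGN, groups that overlap (SD, n = 3 each). Under LA 3 of the 7 fell (MT-ND2, MT-ND3 and MT-ND4) and MT-ND6, the one encoded on the other strand of the mitochondrial genome, rose. Across all genes tested 5.07% were called lower under LA and 10.7% higher. MT-ND3 averaged 3115 TPM in LA+RVT and 3756 TPM in LA, with a log2 fold change of -0.27 ± 0.04 (SE, adjusted p = 0.00523 in limma). It was also the 1 MT-ND gene called under PGN, at 2720 TPM in PGN+RVT and 3328 TPM in PGN, with a log2 fold change of -0.29 ± 0.04 (SE, adjusted p = 0.00279 in limma). MT-ND6 had a log2 fold change of 0.25 ± 0.04 under LA (SE, adjusted p = 0.00813 in limma). In the difference 0 of the 7 were called in limma, with 2 higher and 1 lower at an unadjusted p under 0.05, where 12.8% of all genes tested were higher and 15.5% lower.

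Of 11 assembly factors outside the NDUFAF names, 0 were called under LA, 1 higher under PGN and 0 in the difference in limma. Across all genes tested 15.7%, 15.6% and 14.8% were called in these comparisons. At an unadjusted p under 0.05, 1 was lower under LA, 2 were higher and 1 lower under PGN, and 2 were lower in the difference. All genes tested gave 10.3% lower under LA, 21.3% higher and 9.44% lower under PGN, and 15.5% lower in the difference. The 1 called gene was DMAC2, a membrane arm assembly factor, at 58.1 TPM in PGN+RVT and 48.9 TPM in PGN, with a log2 fold change of 0.24 ± 0.05 (SE, adjusted p = 0.0189 in limma).

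Among subunits of the other respiratory complexes, those of complexes II and IV held most of the calls in the difference. Across all genes tested 7.73% were called lower in the difference and 7.03% higher. At an unadjusted p under 0.05 in limma these shares were 15.5% and 12.8%. Of 4 complex II subunits, 3 were called lower in the difference, led by the flavoprotein SDHA at -0.29 ± 0.05 (SE, adjusted p = 0.00333 in limma), which averaged 212 TPM in LA+RVT and 236 TPM in LA, and 228 TPM in PGN+RVT and 208 TPM in PGN. Of 10 nuclear complex IV subunits, 5 were called lower in the difference and 0 higher (6 lower and 1 higher at an unadjusted p under 0.05 in limma). COX8A, a small subunit of that enzyme, averaged 1081 TPM in LA+RVT and 1174 TPM in LA, and 1189 TPM in PGN+RVT and 976 TPM in PGN, and its difference was -0.40 ± 0.04 (SE, adjusted p = 0.000102 in limma). Of 9 nuclear complex III subunits 0 were called in the difference in limma, also at an unadjusted p under 0.05. Under LA 1 of them, UQCRC2, was called lower, where 5.07% of all genes tested were. Of 15 ATP synthase subunits, 1 was lower (ATP5PO) and 1 higher in the difference. The higher one was ATP5F1D, the delta subunit of the catalytic part, at 124 TPM in LA+RVT and 92.5 TPM in LA, and 107 TPM in PGN+RVT and 130 TPM in PGN (difference 0.69 ± 0.16 SE, adjusted p = 0.0142 in limma).

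Regulators of mitochondrial biogenesis had more positive effects of resveratrol under LA than under PGN where called. Of 12 listed 11 could be tested, since PPARGC1A did not reach 1 TPM. Under LA 2 were called higher, PPRC1 and, just under the threshold, YY1 (adjusted p = 0.0499 in limma), where 10.7% of all genes tested were. Under PGN 1 was called lower, where 4.92% of all genes tested were. This was PPARGC1B (adjusted p = 0.0479 in limma), at only 2.91 TPM in PGN+RVT and 4.12 TPM in PGN. In the difference PPRC1, YY1 and PPARGC1B were called higher and 0 lower, where 7.03% of all genes tested were called higher. At an unadjusted p under 0.05 in limma 5 were higher and 0 lower, where 12.8% of all genes tested were higher. PPRC1, a coactivator related to PPARGC1A, averaged 27.0 TPM in LA+RVT and 21.2 TPM in LA, and 33.1 TPM in PGN+RVT and 36.1 TPM in PGN, with a difference of 0.46 ± 0.08 (SE, adjusted p = 0.00443 in limma). YY1, a transcription factor, differed by 0.42 ± 0.10 (SE, adjusted p = 0.0195 in limma).

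The sequences before the start sites are shown for 4 of the 5 genes whose difference between arms was called in every alternative, the fifth, NDUFB9, being left out: NDUFAF8 with a higher effect under LA, and NDUFS6, NDUFA13 and NDUFA11 with lower ones. They are the 250 bases upstream of the RefSeq start site on GRCh38.p14, 5′ to 3′ on the gene's strand. Capitals mark matches, on either strand, to TGCGCA (the core of the NRF1 motif), CCGGAAG (ETS factors such as GABP), ATGGCGG (YY1), GGGCGG (SP and KLF factors) and CCAAT. The regions are chr17:81239664-81239913 (plus) for NDUFAF8, chr5:1801157-1801406 (plus) for NDUFS6, chr19:19515975-19516224 (plus) for NDUFA13 and chr19:5903791-5904040 (minus) for NDUFA11. RefSeq and GENCODE 29 place these starts at different bases. By GENCODE 29 the windows of NDUFAF8 and NDUFA13 lie wholly inside the gene and that of NDUFA11 mostly so. They are upstream sequence by the RefSeq start only.
NDUFAF8: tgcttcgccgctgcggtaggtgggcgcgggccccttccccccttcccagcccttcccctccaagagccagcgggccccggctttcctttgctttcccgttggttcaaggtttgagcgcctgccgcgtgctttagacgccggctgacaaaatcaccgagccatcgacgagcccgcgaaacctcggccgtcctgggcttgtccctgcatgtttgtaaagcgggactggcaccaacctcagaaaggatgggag
NDUFS6: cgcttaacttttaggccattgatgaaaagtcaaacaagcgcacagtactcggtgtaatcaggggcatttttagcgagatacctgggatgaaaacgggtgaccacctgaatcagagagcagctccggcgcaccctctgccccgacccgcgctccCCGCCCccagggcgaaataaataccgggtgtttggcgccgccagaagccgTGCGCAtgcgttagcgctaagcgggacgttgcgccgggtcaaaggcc
NDUFA13: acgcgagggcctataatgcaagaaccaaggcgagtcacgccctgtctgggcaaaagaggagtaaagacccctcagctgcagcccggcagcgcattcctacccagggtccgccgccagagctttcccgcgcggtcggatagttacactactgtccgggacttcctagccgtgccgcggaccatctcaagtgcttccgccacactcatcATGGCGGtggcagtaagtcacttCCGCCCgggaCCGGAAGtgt
NDUFA11: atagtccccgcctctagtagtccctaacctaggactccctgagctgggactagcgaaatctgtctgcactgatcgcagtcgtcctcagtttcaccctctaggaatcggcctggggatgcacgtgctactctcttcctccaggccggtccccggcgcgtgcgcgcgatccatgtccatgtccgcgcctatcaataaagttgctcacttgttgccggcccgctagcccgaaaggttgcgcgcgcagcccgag
NDUFAF8 and NDUFA11 held none of these letters in this window. NDUFS6 held matches to the SP and the NRF1 letters, and NDUFA13 held matches to the YY1, SP and ETS letters close to the start.

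Of the 46 genes 39 were found in the RefSeq promoter table, as windows of 250 bases before to 50 after the start. The shares set beside them are of all promoters in that table and were not limited to genes expressed in these cells. TGCGCA was present in 12 of the 39 (30.8%), against 8.4% of all 27305 promoters in the table, and ATGGCGG in 14 (35.9%) against 5.7%. The letters of ATGGCGG can also stand at a translation start. Both were searched after longer forms of the NRF1 and YY1 motifs had been tried. GGGCGG was present in 22 (56.4%) against 44.6%, and CCGGAAG in 6 (15.4%) against 10.7%. CCAAT was present in 11 (28.2%) against 35.7%, TATAAA in 3 (7.7%) against 12%, and TGACGTCA, the CREB motif, in 2 (5.1%) against 2.0%. A match is a run of letters and no evidence of binding in these cells.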

How the data were processed

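The authors deposited 2 tables of TPM, one for the LA and one for the PGN libraries, rounded to 2 decimals. The submitters' processing notes name the build GRCh38.p13 and the tools RSEM 1.3.1, HISAT2 2.1.0 and DESeq2 1.24.0 without saying what each did, and the sources used here name no annotation release. TPM is scaled by transcript length and library total and keeps no depth, so depth is unknown. On the scale of log2(TPM + 1), and after a filter that kept means of 1 TPM or more, groups were compared with limma 3.58.1 in R 4.3.3 (trended variance, two-sided, Benjamini-Hochberg, threshold 0.05). Fold changes on this scale understate those of low genes. Each arm used its own 6 libraries, and the difference used 12 libraries and genes in both tables. The code was tested on simulated data. Groups and replicate numbers came from the sample titles. One member enters the counts and sums but is not reported here by itself. The members and lists were chosen with earlier results of these data known. Genes given in every library were those with an adjusted p under 0.05: the 6 largest changes per direction and arm, the 4 largest differences per direction, the core subunits and the assembly factors, and in pathway lists up to 4 members with the smallest p. Positions, lengths and GC content came from GENCODE 29 on GRCh38, and promoters from RefSeq on GRCh38.p14. Alternatives changed the pseudocount, the filter, the scaling, a GC and length trend, a replicate block, the variance prior and the libraries included.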

Additional observations from a re-analysis of the deposited data

Results flagged for a closer look

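The following genes had effects of resveratrol that differed between the LA and the PGN arm in limma, given as the log2 effect under LA minus that under PGN. The difference was above 0 in 2 assembly factors, at 2.39 for NDUFAF8 and 0.25 for NDUFAF3. It was below 0 in 8 accessory subunits of the membrane arm, at -0.46 for NDUFA13, -0.40 for NDUFA11, -0.40 for NDUFA3, -0.32 for NDUFB11, -0.29 for NDUFB9, -0.24 for NDUFA8, -0.22 for NDUFS5 and -0.19 for NDUFC2. It was also below 0 in the peripheral arm subunits NDUFS6 at -0.39, NDUFA2 at -0.35 and NDUFA6 at -0.21, in the core subunit NDUFS3 at -0.32, and in NDUFA4 of complex IV at -0.30.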

How the results depend on the processing

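TPM gives no depth, and 3 libraries per group limit the precision of such small changes. No call changed direction. NDUFAF8 and NDUFS6 were called under all alternatives under LA, no gene was under PGN, and NDUFAF8, NDUFS6, NDUFA13, NDUFA11 and NDUFB9 were in the difference. With library medians equalised, LA gave 1 higher and 10 lower genes, PGN 1 and 1, and the difference 2 and 7. Over all genes the split was 1041 higher and 1080 lower under LA, 850 and 1020 under PGN, and 1210 and 983 in the difference. TPM rescaled without mitochondrially encoded and ribosomal protein genes gave 1 higher and 11 lower under LA. PGN then gave 3 and 1, and the difference 1 and 14 (all genes: 1014 and 971 under LA, 1168 and 774 under PGN, 970 and 1263 in the difference). With a GC and length trend removed, LA gave 1 higher and 6 lower, PGN 3 and 1, and the difference 3 and 8. Over all genes the counts were 1187 and 967 under LA, 1137 and 1223 under PGN, and 1394 and 1127 in the difference. Without a filter on low values, LA gave 2 higher and 4 lower, PGN 2 and 0, and the difference 1 and 7. Over all genes the counts were 1095 and 515 under LA, 900 and 484 under PGN, and 835 and 860 in the difference. Leaving out 1 library gave 1 to 4 higher and 2 to 6 lower under LA, 1 to 7 higher and 0 to 1 lower under PGN, and 1 to 3 higher and 7 to 13 lower in the difference. Over all genes such fits gave 954 to 1144 higher and 457 to 547 lower under LA. They gave 690 to 1270 and 405 to 599 under PGN, and 833 to 1062 and 862 to 1188 in the difference. The replicate numbers gave no sign of pairing: correlations of same-numbered libraries lay between -0.07 and 0.041, and 5 of 12 libraries correlated best with their own number. Correlations over all genes tested cannot exclude shared culture days, which are not stated. With the replicate number as a block, LA gave 1 higher and 5 lower, PGN 3 and 1, and the difference 2 and 7. Over all genes the counts were 997 and 505 under LA, 1039 and 535 under PGN, and 834 and 896 in the difference. The cause of these changes was not tested.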
